A study of Mus musculus with 10 samples.

Results

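The family of miR-92, miR-25, miR-32 and miR-363 is the group of miRNAs that carry the same seed, bases 2 to 8 of the mature RNA, as miR-92a. It comprised mmu-miR-92a-3p, mmu-miR-25-3p, mmu-miR-92b-3p, mmu-miR-32-5p and mmu-miR-363-3p, 5 of the 1061 mature miRNAs in the deposited table, chosen by name and shared seed and not by any measured value. Earlier results of these data were known when the members were chosen. Small RNA had been sequenced from both retinas of 5 wild-type C57BL/6J mice, an inbred laboratory strain, giving 5 left and 5 right libraries. Every animal was anaesthetised with ketamine and xylazine at postnatal day 24, a goggle with a -20 D lens was fixed over 1 eye, and both retinas were taken at postnatal day 34, after 10 days of a treatment that induces myopia. The other eye of the same animal had no lens. For every library the labels state the mouse (61, 64, 65, 66 or 68) and whether the retina was left or right, but they do not name the eye that wore the lens. Lens and control eyes may therefore stand in either group, and the contrast within each animal was right minus left.

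A miRNA is cut from a hairpin in a longer transcript, first in the nucleus and then by Dicer in the cytoplasm. One arm is loaded into an Argonaute protein, and its seed pairs with messenger RNAs, which are then translated less or degraded. miRNAs with the same seed can bind many of the same sites, so a seed family acts on an overlapping set of targets even where its members come from different genes. miR-92a belongs to the MYC-driven oncogenic miR-17-92 polycistron and restrains angiogenesis in endothelial cells. miR-25 lies with miR-106b and miR-93 in Mcm7, a gene of DNA replication, and miR-92b is known from neural progenitors. These genes are best known from dividing cells, whereas the neurons of the retina no longer divide at this age.

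The mature sequences are shown because the seed defines the family and the remaining bases separate its members. They are RefSeq's for GRCm38.p6, written 5′ to 3′ with the seed in capitals.
miR-92a-3p: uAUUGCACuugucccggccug
miR-25-3p: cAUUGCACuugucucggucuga
miR-92b-3p: uAUUGCACucgucccggccucc
miR-32-5p: uAUUGCACauuacuaaguugca
miR-363-3p: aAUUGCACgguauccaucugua
Of 1679 mature mouse miRNAs in the RefSeq set, 6 had this seed, and the other one, miR-367-3p of an embryonic stem cell cluster, was not analysed here. Counted from the 5′ end, miR-92a-3p and miR-92b-3p differed at 2 of 21 aligned bases, U10C and G21C, with the base of miR-92a-3p given first. miR-25-3p differed from miR-92a-3p at 3 of 21 bases, U1C, C14U and C18U. miR-32-5p and miR-363-3p had little in common with miR-92a-3p beyond the seed, with 3 of 13 bases identical after base 8 in both cases. The GC content ran from 31.8% in miR-32-5p and 40.9% in miR-363-3p through 50.0% in miR-25-3p to 57.1% in miR-92a-3p and 63.6% in miR-92b-3p.

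miR-32-5p is the member that comes from the 5′ arm of its hairpin, and the others come from the 3′ arm. The RefSeq precursors of miR-32 and miR-25 show the 2 placements, with the member in capitals.
Mir32: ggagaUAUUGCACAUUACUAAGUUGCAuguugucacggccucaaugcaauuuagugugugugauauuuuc
Mir25: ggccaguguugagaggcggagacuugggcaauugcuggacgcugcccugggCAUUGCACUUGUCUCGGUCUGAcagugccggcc

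The family is spread over 5 chromosomes of GRCm38. miR-92a-3p has a copy on chromosome 14 (115044476 to 115044496, plus strand) in an exon of the noncoding host Mir17hg, and an identical copy on chromosome X (52741854 to 52741874, minus strand) outside other annotated genes, so its reads cannot be assigned to a copy. miR-363-3p lies on the same strand of chromosome X (52741697 to 52741718), in the miR-106a polycistron with the second copy of miR-92a. miR-25-3p lies on chromosome 5 (138165332 to 138165353, minus strand) within Mcm7, in an exon of a retained-intron transcript. miR-32-5p lies on chromosome 4 (56895272 to 56895293, minus strand) in an intron of Tmem245. miR-92b-3p lies on chromosome 3 (89227126 to 89227147, minus strand), outside other annotated genes. Like miR-32-5p, it belongs to none of the polycistrons examined here.

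The levels are normalised reads, the authors' values. Each library summed to between 17312269 and 17312436, and the sequencing depth is unknown. At 342 ranks all libraries held 1 common value, so a value largely mirrors the rank of a miRNA within its library. The retinal identity of the tissue was visible in all libraries, with the photoreceptor miRNAs miR-182-5p and miR-183-5p at rank 1 and rank 3 and the neuronal miR-124-3p at ranks 12 to 14. RNA was taken from whole retina, where fewer cells of a type and less RNA per cell cannot be told apart.

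miR-92a-3p was the most abundant member. Left retinas held 28832 normalised reads in mouse 61, 34261 in mouse 64, 41158 in 65, 38949 in 66 and 30983 in 68. In the right retinas it was at 30983, 38949, 38949, 41158 and 30983 in mice 61, 64, 65, 66 and 68. The low libraries were those of mice 61 and 68 on both sides, and left and right values overlapped. miR-92a-3p held ranks 20 to 24 of 1061 and averaged 34837 ± 5199 in left and 36205 ± 4851 in right libraries (SD, n = 5).

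Next came miR-25-3p, which was the steadiest of the 5, with a coefficient of variation of 6.47% over the 10 libraries. Its left values were 11298, 10930, 11298, 12364 and 9982 normalised reads in mice 61, 64, 65, 66 and 68, and its right values were 10930, 10930, 11298, 11670 and 9982. Both eyes of mouse 68 were the lowest and both eyes of mouse 66 the highest, and 3 of 5 mice had the same value in both eyes. It held ranks 36 to 41.

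miR-92b-3p, closest to miR-92a-3p in sequence, followed. In left retina it was at 3169 normalised reads in mouse 61, 4197 in 64, 6629 in 65, 4352 in 66 and 4197 in 68. In right retina it was at 4642, 6491, 6491, 5811 and 4496 in the same order. Mouse 65 was high in both eyes, the other 4 left values lay below the lowest right one, and because of mouse 65 the sides overlapped. Its ranks ran from 53 to 73, a wider span than that of miR-92a-3p or miR-25-3p.

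miR-32-5p and miR-363-3p were rare. miR-32-5p was at 92, 70.2, 29.5, 46.4 and 71.2 normalised reads in the left retinas of mice 61, 64, 65, 66 and 68, and at 57.3, 47.5, 94.9, 55.0 and 39.1 in the right ones. The lowest and the highest value both came from mouse 65, left and right, and the sides overlapped. miR-363-3p was at 5.77, 5.77, 1.59, 8.47 and 6.29 on the left and at 5.3, 5.9, 5.68, 3.5 and 6.5 on the right. With a mean of 5.48 ± 1.83 (SD over 10 libraries), it lay under the mean of 10 required for testing, so that 4 of the 5 members were tested.

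**Figure D1:**
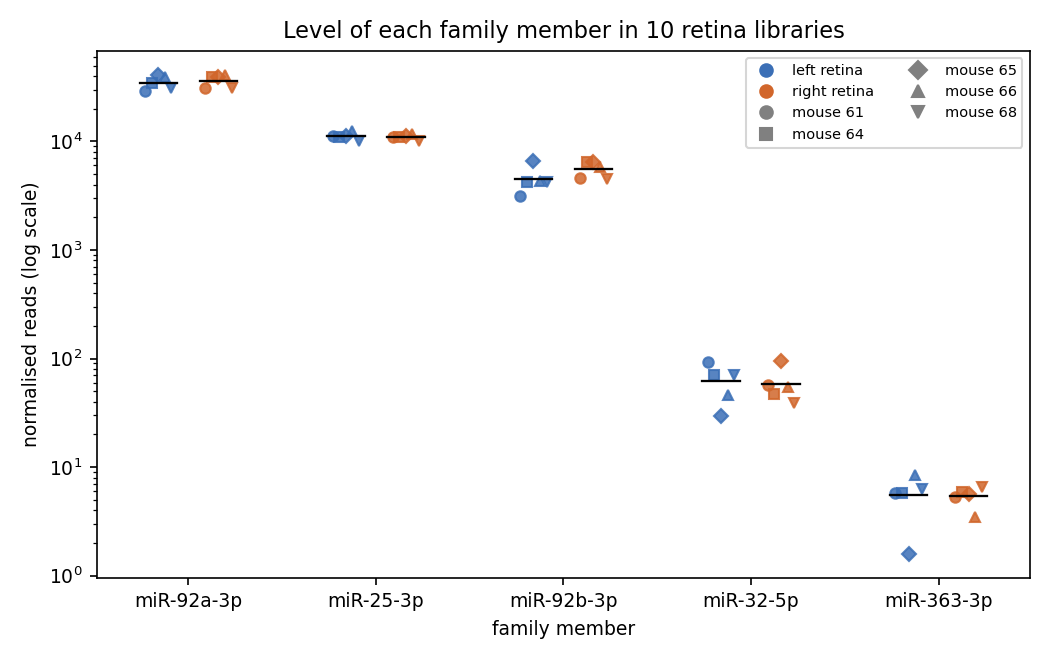
Normalised reads (log axis) of the 5 family members in 10 retina libraries, with colour for the side, symbols for the mouse and a bar for the mean of 5 libraries. The members lie on separate levels, from means of 34837 and 36205 for miR-92a-3p to 5.58 and 5.38 for miR-363-3p on the left and right.

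The order miR-92a-3p, miR-25-3p, miR-92b-3p, miR-32-5p, miR-363-3p held in 10 of 10 libraries, and no 2 neighbours overlapped over the libraries. miR-92a-3p was 2.55 to 3.64 times as abundant as miR-25-3p, which was 1.68 to 3.57 times as abundant as miR-92b-3p. The large step was from miR-92b-3p to miR-32-5p, with a ratio of 34.4 to 225 and a median of 87.4. miR-32-5p exceeded miR-363-3p 5.47 to 18.6 times. For each of the 4 neighbouring pairs the exact sign-flip permutation test over 5 mice gave a two-sided p of 0.0625, the smallest it can give, and 0.0625 after adjustment over the 4 pairs, so that no pair could pass 0.05. The mature RNAs are 21 or 22 bases long, and the order was the same per base of length. Adapter ligation favours some sequences, so these ratios between miRNAs are not molar.

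Together the 5 members took 0.299% of the normalised total, with 51702 ± 6225 normalised reads (SD over 10 libraries). The sum ranged from 43396 to 59116 in left and from 45506 to 58698 in right retina. Of the sum, 68.6% ± 1.30 was miR-92a-3p, 21.6% ± 2.14 miR-25-3p and 9.67% ± 1.48 miR-92b-3p (SD over 10 libraries). miR-32-5p supplied 0.120% and miR-363-3p 0.0109%. The seed AUUGCAC was thus represented in the retinal libraries almost wholly by the 3 members that resemble each other beyond the seed.

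In every hairpin the member was the more abundant arm in 10 of 10 libraries. miR-25-3p stood at 229 times its opposite arm miR-25-5p in the median library, with a range from 188 to 326. miR-92a-3p, with reads from both copies, was 179 to 286 times as abundant as miR-92a-1-5p, the opposite arm of the chromosome 14 copy, which had a mean of 162 ± 18.6 (SD over 10 libraries). The opposite arm of the X copy was not analysed here. miR-92b-5p was listed at 0 in 3 libraries and reached at most 5.10 normalised reads. miR-32-3p, the 3′ arm of the hairpin printed above, was listed at 0 in 2 libraries, and in the other 8 miR-32-5p was 7.74 to 41.4 times as abundant. miR-363-5p was listed at 0 in 7 libraries. Values this low are the least certain of the table.

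Members of polycistrons differed widely in level from the miRNAs they are transcribed with. miR-92a-3p was 56.0 to 123 times as abundant as the highest other miRNA of miR-17-92, with a median of 73.4. The next in mean level there were miR-19a-3p, whose left libraries averaged 397 ± 45.1 and whose right ones 424 ± 82.1, and miR-19b-3p with 430 ± 77.5 and 372 ± 39.9 (SD, n = 5). Both belong to the miR-19 seed family, the main oncogenic part of the cluster. miR-17-5p, the name-giving member, had 96.2 ± 12.1 and 80.2 ± 15.4 (SD, n = 5). In miR-106b-25, miR-25-3p was 13.8 to 17.2 times as abundant as the highest other miRNA, miR-93-5p in the mean, which averaged 709 ± 26.2 in left and 720 ± 70.0 in right libraries (SD, n = 5). The X cluster also holds copies of miR-92a-3p and miR-19b-3p, whose reads cannot be assigned to a copy. Against the other 2 miRNAs of this cluster in the table, miR-106a-5p and miR-20b-5p, miR-363-3p was the highest in 7 of 10 libraries, and those 2 together reached 23.4 normalised reads at most.

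**Figure D2:**
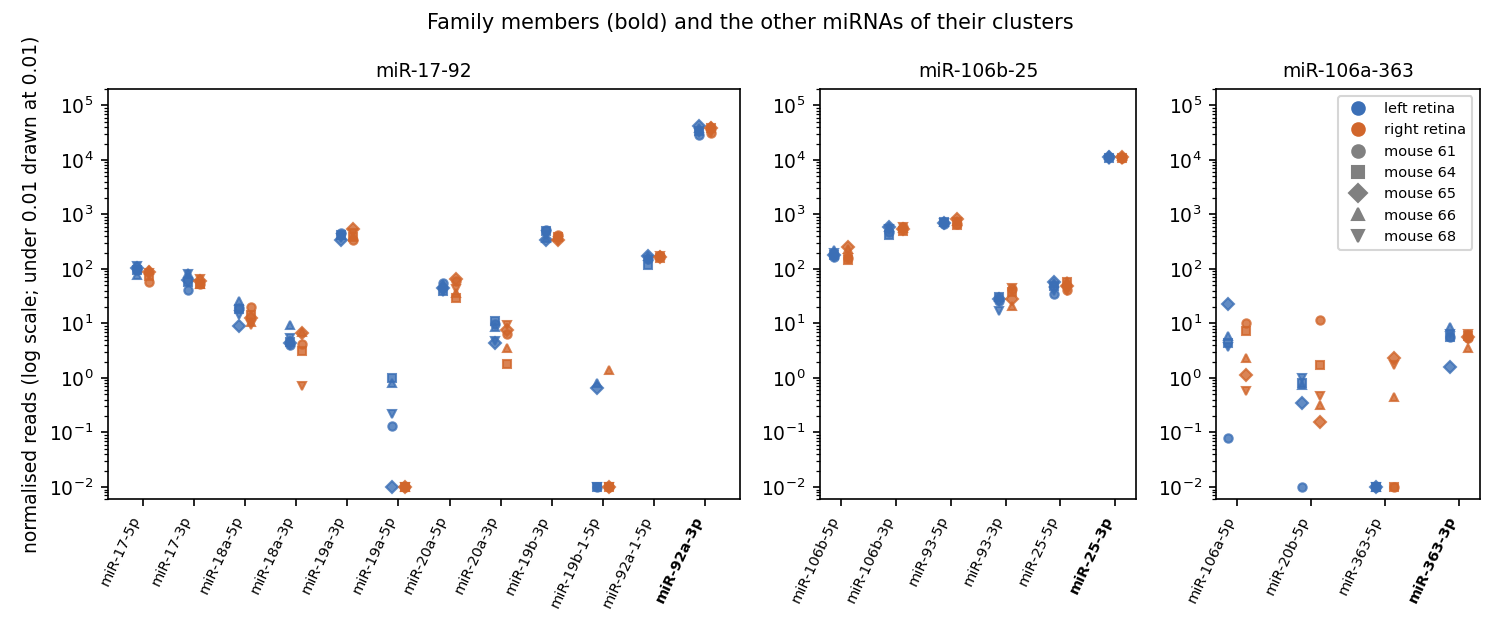
Normalised reads (log axis, values under 0.01 drawn at 0.01) of family members (bold) and of other measured miRNAs of 3 polycistrons, by side (colour) and mouse (symbol), with miR-19b-3p and miR-92a-3p, which have copies in miR-17-92 and on X, drawn under miR-17-92. miR-92a-3p and miR-25-3p stand above all other miRNAs of miR-17-92 and miR-106b-25 in 10 of 10 libraries, whereas miR-363-3p lies in the low range of miR-106a-5p and miR-20b-5p.

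The contrast of the eyes, right minus left, asked whether members differ between the eyes of animals of which 1 eye wore the lens. miR-92b-3p was the member with the largest estimated difference, higher in the right retina of 4 of 5 mice, and miR-92a-3p and miR-25-3p were nearly level in the 2 eyes. None of the 4 tested members passed the test. limma called 0 of 4 members at an adjusted p under 0.05, and 0 of all 484 miRNAs tested (0%). At an unadjusted p under 0.05 there was 1 of 4 members, miR-92b-3p, and 12 of 484 miRNAs overall (2.48%). No member had left and right values that did not overlap, as against 4 of 484 miRNAs (0.826%), and no member had the same direction in 5 of 5 mice, as against 18 of 484 (3.72%). The median log2 fold change of the 4 members was 0.02 and that of all tested miRNAs -0.01.

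miR-92b-3p averaged 4509 ± 1276 in the left libraries and 5586 ± 970 in the right ones (SD, n = 5). The log2 differences, right minus left, were 0.55 in mouse 61, 0.63 in 64, -0.03 in 65, 0.42 in 66 and 0.10 in 68. limma gave a log2 fold change of 0.33 (SE 0.11, 95% interval 0.07 to 0.60), an unadjusted p of 0.0220 and an adjusted p of 0.958. Of all 484 miRNAs, 72 (14.9%) were higher on the right in 4 or 5 mice. Without mouse 65, whose difference was near 0, the estimate was 0.42, with an adjusted p of 0.251 by limma. Leaving out that mouse also raised the miRNAs at an unadjusted p under 0.05 from 12 to 62 of 484. Without mouse 61, 64, 66 or 68 the unadjusted p of miR-92b-3p by limma was 0.0731, 0.0740, 0.0675 and 0.0208. Its exact sign-flip permutation test over 5 mice gave a p of 0.125.

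miR-92a-3p had log2 differences of 0.10, 0.19, -0.08, 0.08 and 0.00 in mice 61, 64, 65, 66 and 68. Its log2 fold change by limma was 0.06 (SE 0.04, 95% interval -0.04 to 0.16, adjusted p 0.958). For miR-25-3p the differences were between -0.08 and 0.00, and limma gave -0.03 (SE 0.04, 95% interval -0.12 to 0.06, adjusted p 0.971). These intervals are narrow on a fold scale, but both members moved by whole ranks, so a change that left the rank in place could not show.

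miR-32-5p varied most between the eyes. Its log2 differences were -0.67 in mouse 61, -0.55 in 64, 1.65 in 65, 0.24 in 66 and -0.85 in 68. limma gave -0.04 (SE 0.37, 95% interval -0.93 to 0.86, adjusted p 1). Mouse 65 decided this value, which was -0.46 without that animal (adjusted p 0.366 by limma), and the sign turned when mouse 61, 64 or 68 was left out. The right library of mouse 65 also stood apart in a marker of lens and cornea, miR-184-3p, with 22384 normalised reads beside 988 in the left retina of that mouse and 1898 to 2117 in the other right ones. The 3 miRNAs of that marker list summed to 1217 to 2301 in left and to 2119 to 22622 in right retinas, and none was at 0. The other 2 of the list did not stand apart in the right library of mouse 65. There miR-205-5p was at 25.6, with right retinas from 21.2 to 49.4, and miR-203-3p at 213, with right retinas from 194 to 214. The left library of mouse 68 stood apart in the muscle miRNA miR-133a-3p, with 1596 beside 241 to 359 elsewhere. The others of its list were also highest in that library. There miR-133b-3p was at 113, with 22.5 to 67.0 elsewhere. miR-1a-3p was at 26.6, with at most 8.24 elsewhere, and miR-206-3p at 6.29, with at most 1.95 elsewhere. The list of 4 summed to 295 to 1742 in left and 279 to 400 in right retinas. Among the libraries, miR-1a-3p was at 0 in 1 and miR-206-3p at 0 in 2. The part of such tissue in the values of the family was not tested, and values without mice 65 and 68 are given here or with the processing alternatives. miR-363-3p, fitted only where low miRNAs were kept, had a log2 fold change of 0.05 (SE 0.39, adjusted p 0.996 by limma).

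**Figure D3:**
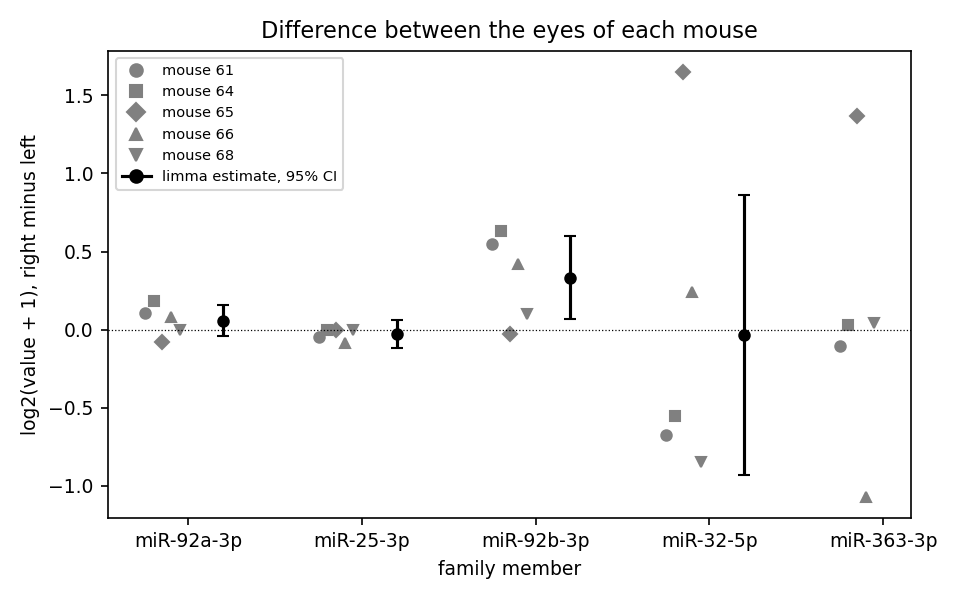
Difference in log2(value + 1), right minus left, for each of 5 mice (grey symbols) and the limma estimate with its 95% interval (black) for the 4 tested members. miR-92b-3p has 4 of 5 mice above 0 and an estimate of 0.33, miR-92a-3p and miR-25-3p lie close to 0, and miR-32-5p spreads from -0.85 to 1.65.

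Libraries also differed by base composition, and the part of this in the differences between the eyes was not tested beyond the values given here. The trend of log2 values on GC content was higher in the right than in the left library by 0.19 per 10 points in mouse 61, 0.12 in 64, 0.06 in 66 and 0.04 in 68, and lower by 0.17 in mouse 65 (a difference of -0.17). In mice 61, 64 and 68 the difference of the GC-poor miR-32-5p had the opposite sign to this trend, as it did in mouse 65, and in mouse 66 it had the same sign. With the trend of each library removed, the differences of miR-92b-3p were 0.28, 0.46, 0.21, 0.34 and 0.04 in mice 61, 64, 65, 66 and 68, above 0 in 5 of 5. Their limma estimate was 0.27, with an unadjusted p of 0.00659 and an adjusted p of 0.949. Under this setting, added after seeing the data, 17 of 484 miRNAs had an unadjusted p under 0.05. The share of all miRNAs above 0 in 5 of 5 mice was not counted for it. The difference of miR-32-5p in mouse 65 went from 1.65 to 1.35, and its estimate from -0.04 to 0.05.

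Relative to miR-92a-3p, from which it differs at 2 aligned bases, miR-92b-3p was higher on the right in 5 of 5 mice. It amounted to 11.0%, 12.2%, 16.1%, 11.2% and 13.5% of miR-92a-3p in the left retinas of mice 61, 64, 65, 66 and 68. In the right retinas it amounted to 15.0%, 16.7%, 16.7%, 14.1% and 14.5%. The left libraries averaged 12.8% ± 2.10 and the right ones 15.4% ± 1.20 (SD, n = 5), and the sides overlapped through the left retina of mouse 65. Of the 483 other tested miRNAs, 8 (1.66%) had a ratio to miR-92a-3p that was higher on the right in all 5 mice. The ratio was chosen after its values were seen, and no test was made of it.

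**Figure D4:**
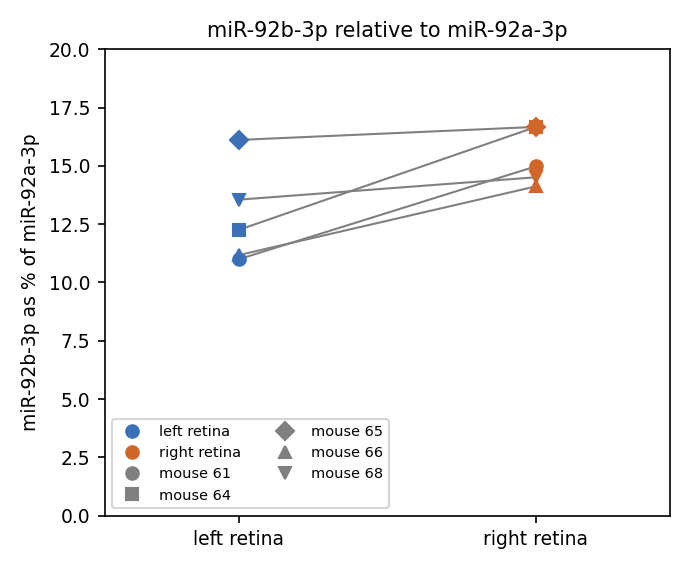
miR-92b-3p as a percentage of miR-92a-3p (vertical axis, from 0) in left and right retina, with a line for each of 5 mice. All 5 lines rise to the right, from a mean of 12.8% to a mean of 15.4%.

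The animals themselves differed in miR-92a-3p more than their eyes did. Its mean over both eyes was 29907 normalised reads in mouse 61 and 30983 in mouse 68, 36605 in mouse 64 and 40054 in both 65 and 66. The 5 mouse means spanned 0.42 on the log2 scale, while the gap between the eyes of a mouse was 0.19 at most. A limma F test over the 5 mice, added after these values were seen, gave an adjusted p of 0.0546 for miR-92a-3p, just above the threshold. It gave 0.278 for miR-25-3p, 0.273 for miR-92b-3p and 0.983 for miR-32-5p. By this test 0 of 4 members and 8 of 484 miRNAs (1.65%) passed, and at an unadjusted p under 0.05 there were 3 of 4 members and 68 of 484 miRNAs (14%). With 1 mouse left out the adjusted p of miR-92a-3p by limma was 0.0455 without mouse 65, past the threshold, and 0.194, 0.0752, 0.180 and 0.122 without mouse 61, 64, 66 and 68. Without the mean-variance trend it was 0.228. Animal and library preparation cannot be told apart here, because the labels name no batch.

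The gap between the eyes, whatever its direction, is a measure that does not depend on the side of the lens. Its median over 5 mice was 0.08 on the log2 scale for miR-92a-3p and 0.00 for miR-25-3p, against 0.24 for the tested miRNAs as a whole. For miR-92b-3p it was 0.42, at or above 79.3% of the tested miRNAs, and for miR-32-5p 0.67, at or above 93.6%. Thus miR-92a-3p and miR-25-3p had a smaller median gap than most tested miRNAs, and miR-92b-3p and miR-32-5p a larger one. The tested miRNAs include levels down to a mean of 10, and miRNAs of like level were not compared separately. The 0.00 of miR-25-3p reflects 3 mice with the same value in both eyes.

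**Figure D5:**
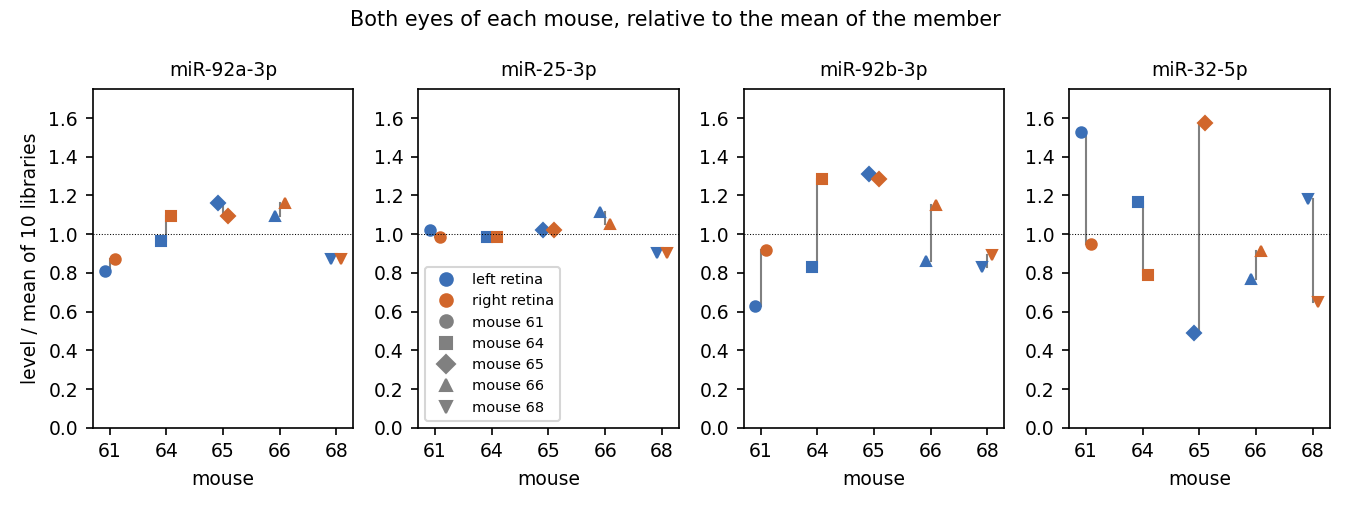
Level of 4 members in the left and right retina of each mouse, divided by the mean of the member over 10 libraries (vertical axis, from 0). Mice 61 and 68 are below the mean of miR-92a-3p in both eyes, miR-25-3p hardly moves, and miR-32-5p has its lowest and highest value in the eyes of mouse 65.

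The opposite arms and the polycistron partners, the other products of the same transcripts, were looked up from a fixed list of 27 names, of which 21 were in the table and 12 were tested. limma called 0 of these 12 higher and 0 lower on the right, with 6 log2 fold changes above 0 and 6 below and a median of -0.0058, beside -0.011 for all tested miRNAs. Of all 484 tested miRNAs, 253 were below 0 and 224 above. In miR-17-92 there were 5 of 6 tested partners below 0. They ran from -0.33 (SE 0.28) for miR-18a-5p to 0.08 (SE 0.17) for miR-19a-3p, with 0 of 6 at an unadjusted p under 0.05 by limma. miR-92a-3p was at 0.06 and miR-92a-1-5p at 0.17. In miR-106b-25 there were 3 of 4 above 0, with 0.37 (SE 0.27) for miR-93-3p and 0.02 (SE 0.09) for miR-93-5p. miR-25-5p, the opposite arm of miR-25-3p, was at 0.07 (SE 0.11).

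miR-92a and miR-25 are also abundant in red blood cells, and miR-92a in endothelium. The 5 erythrocyte miRNAs of the marker list were all above 0 in every library, and their sum lay between 4980 and 6699 normalised reads in left retinas and between 5149 and 8112 in right ones. miR-451a averaged 50.4 ± 18.4 in left and 46.8 ± 9.03 in right libraries, miR-144-3p 14.5 ± 7.34 and 8.61 ± 2.22, and miR-486a-5p 2686 ± 189 and 3341 ± 678 (SD, n = 5). limma gave miR-486a-5p a log2 fold change of 0.29 (unadjusted p 0.0394, adjusted p 0.958), with differences of 0.47, 0.38, -0.17, 0.23 and 0.56 in mice 61, 64, 65, 66 and 68, the same sign in each mouse as miR-92b-3p. The log2 fold change was -0.55 for miR-144-3p, -0.14 for miR-144-5p, -0.03 for miR-451a and 0.17 for miR-486b-5p. The differences of miR-144-3p were -1.301, -1.335, 0.766, -0.038 and -0.8545 in mice 61, 64, 65, 66 and 68. They had the opposite sign to miR-92b-3p in each mouse, but miR-144-3p had a mean of 11.5, near the minimum of 10 for testing. miR-486a-5p was higher on the right in 4 of 5 mice and miR-486b-5p in 3. miR-451a was so in 2 mice, and miR-144-3p and miR-144-5p in 1 each. The erythrocyte miRNAs thus did not share 1 direction. The 2 endothelial miRNAs, both arms of miR-126a, summed to between 7870 and 8926 on the left and between 7427 and 9110 on the right. The part of blood and vessels in the levels of the family was not tested.

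Across the 10 libraries, which come from 5 animals and so are not independent, the members did not share 1 profile. Pearson's r of the log2 values was 0.82 between miR-92a-3p and miR-92b-3p, 0.59 between miR-92a-3p and miR-25-3p and 0.16 between miR-25-3p and miR-92b-3p. It was -0.39 between miR-32-5p and miR-92a-3p and -0.41 between miR-32-5p and miR-92b-3p. Of 478 other miRNAs that varied, the 3 most like miR-92a-3p were miR-25-5p (r = 0.96), miR-329-5p (0.93) and miR-543-3p (0.92). For miR-25-3p they were miR-378a-3p (0.90), miR-34a-5p (0.87) and miR-345-3p (0.78). The miRNA most like miR-92b-3p was its relative miR-92a-3p (0.82), followed by miR-129-5p (0.80) and miR-187-3p (0.79). For miR-32-5p they were miR-376b-3p (0.91), miR-136-5p (0.88) and miR-29b-3p (0.85), with GC contents of 38.1%, 36.4% and 34.8%. The median GC content of the tested miRNAs was 47.8%. Of the miRNAs most like the GC-rich miR-92a-3p, miR-25-5p had 59.1% GC, and miR-329-5p and miR-543-3p had 45.5%. These coefficients describe libraries that share the base-composition trends given above.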

How the data were processed

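Small RNA libraries from 5 left and 5 right retinas were compared. Per the labels' protocols, a column kit (miRNeasy) and the TruSeq small RNA kit were used. The submitters' processing notes list Partek and Bowtie, with no version, and GRCm38 and mm10. For trimming and read assignment nothing is given in the sources used here. Values as deposited are a signal made from read counts, with near-equal totals and shared values by rank, as quantile normalisation gives. The depth and counting error are unknown. The table held 0 columns of other samples.

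Values were taken as log2(value + 1). The 484 miRNAs with a mean of at least 10 entered a linear model in limma 3.58.1 (R 4.3.3) that held side and mouse, with a mean-variance trend, two-sided tests and Benjamini-Hochberg adjustment over all 484 at 0.05. The fit was run on simulated data, independent normal values without the shared values by rank of the deposited ones. That run checked the code and not the behaviour of the fit on these data. Mouse was a term because both retinas of a number come from 1 animal. The deviations of paired eyes from the mean of their side correlated by 0.0893 to 0.382 across miRNAs (median -0.0824 for eyes of different mice). Taking deviations from the mean of a side pushes the values for different mice below 0 where paired eyes are above 0, so they are no independent baseline. Exact sign-flip permutation tests ran over 5 mice.

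Named miRNAs were the members, their opposite arms, their polycistron partners and, for each tested member, the 3 with the highest Pearson r. Members and lists were chosen with earlier results of these data known. Mature sequences came from RefSeq (424 of 484 tested miRNAs, 87.6%), and positions, counted from 1, match the table's starts in GRCm38. The table's end is 1 base beyond. Host genes are from GENCODE M21. Alternatives were other pseudocounts, filters and scaling, no trend, no mouse term, each mouse left out and, added after seeing the data, removal of GC trends.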

Additional observations from a re-analysis of the deposited data

Results flagged for a closer look

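No family member had a library that stood apart from the other 4 of its side by Dixon's criterion. Among 50 groups of 5 libraries (members, opposite arms and polycistron partners, left and right), 4 had such a library, where chance gives about 1 in 20, and all 4 were of low partners that were not tested. miR-106a-5p, of the X cluster of miR-363, reached 23.1 normalised reads in mouse 65 on the left, against 0.0779 to 6.01 in the other left retinas. miR-20b-5p of the same cluster was at 11.5 in the right retina of mouse 61 and at 0.154 to 1.71 in the others. miR-18a-3p of miR-17-92 was at 9.30 in the left retina of mouse 66 and at 4.10 to 5.40 in the others. miR-19b-1-5p was at 1.4 in the right retina of mouse 66 and listed at 0 in the other right retinas.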

How the results depend on the processing

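limma called 0 miRNAs in right minus left retina under all 13 alternatives, with 5 to 62 at an unadjusted p under 0.05 (62 without mouse 65). Without the replicate block the estimate for miR-92b-3p was again 0.33, with an unadjusted p of 0.101, and 0 miRNAs passed, so the paired fit changed no call. miR-92a-3p, miR-25-3p and miR-92b-3p kept their sign under all 13 alternatives. Leaving out each mouse gave 0.26 to 0.42 for miR-92b-3p, 0.026 to 0.092 for miR-92a-3p, -0.033 to -0.012 for miR-25-3p and -0.46 to 0.17 for miR-32-5p, which turned to 0.046 with GC trends removed; the cause was not tested. The count of miRNAs that differed between mice was 3 to 7 with 1 mouse left out and 5 without the mean-variance trend, against 8. It was 9 with GC trends removed, 10 with median-ratio scaling and again 8 under the other pseudocounts and filters. The adjusted p of miR-92a-3p in that limma test was 0.0455 to 0.194 with 1 mouse left out and 0.228 without the mean-variance trend. The order of the members was kept under all 10 alternatives, but none of them could have changed it. It already held in every library, so leaving out a mouse, another pseudocount or scaling of whole libraries keeps it. The lengths of the members are too alike to overturn the lowest neighbour ratio of 1.68, and removal of GC trends leaves the order by construction. These alternatives were therefore no test of the order. The unknown depth and the rank-based values limit all differences of rare members.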
